A study of Mus musculus with 12 samples.

Results

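The cytosolic ribosomal protein genes are 76 protein-coding genes of the 53379 genes counted in whole mouse skin. Gene IDs were matched to GENCODE M21 symbols, and a gene was taken when its symbol was Rpl or Rps followed by a number with an optional a, x or y, or was Rplp0, Rplp1, Rplp2 or Rpsa. The set holds 46 genes of the large subunit and 30 of the small subunit, and all 76 passed the filter on low counts. Rack1, Fau and Rps3a1, which also encode cytosolic ribosomal proteins but have other names, fall outside the symbol rule and are described separately.

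RNA-seq was made from whole skin of mice aged 3 months on a mixed background given as C57BL/6 & B6D2, with 3 libraries in each of 4 groups. Nf1-KO injured and Nf1-KO uninjured mice were Prss56Cre,R26tdTom,Nf1flox/-, and control injured and control uninjured mice were Prss56Cre,R26tdTom, so that the Cre driver and the reporter were shared by all groups. Injured skin was taken 14 days after injury. Cre recombinase driven from Prss56 acts in boundary cap cells and their descendants, a small part of the cells of skin, whereas the RNA came from the whole tissue. The labels number the samples within a group and do not say whether each is another animal; p-values here reflect spread among the libraries, which may be partly technical.

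A cytosolic ribosome is built from a small subunit, which reads the mRNA, and a large subunit, which forms peptide bonds and carries a stalk that recruits translation factors. Ribosomal protein mRNAs belong to the most abundant mRNAs of growing cells, and they share a 5′ terminal oligopyrimidine tract, a run of C and U at the very start of the mRNA, through which mTORC1 and LARP1 adjust their translation and stability. In skin, demand for ribosomes is known to be high in proliferating keratinocytes and in the matrix of the growing hair follicle.

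Starts of the mRNAs were read from RefSeq promoters (GRCm38.p6), where 56 of the 76 genes had an entry. Windows of 30 bases, 15 before and 15 from the annotated start, are shown for the 4 genes with the largest and the 4 with the smallest difference between injured and uninjured control skin among those matched, with the longest run of C and T in capitals.
Rpl38, chr11:114668565-114668594, plus strand: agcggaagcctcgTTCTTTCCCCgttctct
Rplp2, chr7:141447636-141447665, plus strand: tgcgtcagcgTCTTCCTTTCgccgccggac
Rps21, chr2:180257364-180257393, plus strand: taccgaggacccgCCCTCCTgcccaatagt
Rps26, chr10:128626492-128626521, minus strand: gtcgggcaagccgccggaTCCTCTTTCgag
Rpl10, chrX:74270801-74270830, plus strand: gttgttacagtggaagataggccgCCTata
Rps7, chr12:28635939-28635968, minus strand: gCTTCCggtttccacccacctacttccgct
Rpl4, chr9:64173372-64173401, plus strand: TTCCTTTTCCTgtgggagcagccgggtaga
Rpl15, chr14:18270972-18271001, minus strand: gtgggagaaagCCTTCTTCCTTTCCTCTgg
The longest run was 10 bases in Rpl38 and in Rplp2, 9 in Rps26 and 7 in Rps21. In the genes with the smallest differences it was 17 bases in Rpl15, at least 11 in Rpl4, where the run goes on upstream of the window, 5 in Rps7 and 3 in Rpl10, so long runs stood in both sets. The marked runs of Rpl38, Rplp2, Rps21 and Rpl15 span the annotated start. Those of Rps26 and Rpl10 lie after it, and those of Rpl4 and Rps7 lie before it, outside the annotated mRNA. RefSeq starts lay 281 bases from the GENCODE start in Rplp2 and 241 in Rps26, and farther in Rpl15, and the windows follow RefSeq.

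Over the whole promoter table, a run of at least 8 pyrimidines on the gene strand in this window was found in 25 of 56 ribosomal protein genes, 44.6%, and in 13.9% of 27025 genes. The letters CTTTC on the gene strand, from 20 bases before to 50 bases after the start, stood in 30 of 56, 53.6%, and in 10.4% of all genes. CGGAAG, the core of ETS family sites, stood on either strand of the 300-base promoter in 39 of 56, 69.6%, and in 18.8% of all genes. TATAAA in the 50 bases before the start was in 0 of 56 and in 3.15% of all genes. Where a gene has several annotated starts, a match at any of them was counted, and CTTTC can lie inside a pyrimidine run. The 250 bases upstream of Rpl38 and Rpl4 are shown, with CGGAAG and its complement in capitals. In control skin Rpl38 had the largest injury difference among matched genes, and Rpl4 the smallest after Rpl15.
Rpl38, chr11:114668330-114668579, plus strand: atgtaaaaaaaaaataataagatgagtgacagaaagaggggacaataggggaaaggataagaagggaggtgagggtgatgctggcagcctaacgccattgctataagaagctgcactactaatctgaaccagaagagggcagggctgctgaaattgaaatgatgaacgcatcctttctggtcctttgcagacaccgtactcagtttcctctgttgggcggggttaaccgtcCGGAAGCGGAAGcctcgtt
Rpl4, chr9:64173137-64173386, plus strand: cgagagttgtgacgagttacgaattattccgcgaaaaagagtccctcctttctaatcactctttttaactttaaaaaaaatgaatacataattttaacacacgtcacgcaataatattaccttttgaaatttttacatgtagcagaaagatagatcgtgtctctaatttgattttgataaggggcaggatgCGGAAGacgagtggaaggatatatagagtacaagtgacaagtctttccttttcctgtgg
Rpl38 held the letters 2 times, side by side just before its start, and Rpl4 held them 1 time.

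Nf1, with a null allele in all cells of Nf1-KO mice and a floxed allele that is removed where Cre acts, stood at 10.1, 8.14 and 14.1 CPM in Nf1-KO injured, 14.7, 8.98 and 10.6 in control injured, 9.94, 11.05 and 8.96 in Nf1-KO uninjured and 17.2, 13.7 and 9.41 in control uninjured libraries, with overlap between genotypes in both states. Library totals ran from 8817013 to 16809687 counts. Skin state was confounded with sex markers in both genotypes: Xist stood at 436 to 627 CPM (counts relative to each library's total) in the 6 injured libraries and at 0.709 to 2.95 CPM in the 6 uninjured ones. Counts in rRNA-like genes (annotated rRNA genes with Gm42418, Gm26917 and AY036118) made up 1.75% to 4.15% of Nf1-KO injured, 2.00% to 4.21% of control injured, 1.39% to 2.26% of Nf1-KO uninjured and 0.931% to 1.16% of control uninjured libraries. Levels of odorant and vomeronasal receptor genes, which skin does not use, were 0.00210 to 0.0539 CPM per kb in injured and 0.0991 to 0.348 CPM per kb in uninjured libraries. Sex and skin state cannot be told apart here, and the part of the rRNA-like share in the results was not tested beyond the fits given beside them. In bulk tissue, more RNA per cell and more cells that make it cannot be told apart.

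Ribosomal protein genes took 3.35%, 2.44% and 3.02% of all counts in the Nf1-KO injured libraries and 3.39%, 2.60% and 2.71% in the control injured libraries. They took 1.81%, 1.87% and 2.88% in the Nf1-KO uninjured libraries and 1.71%, 1.49% and 1.51% in the control uninjured libraries. All 3 control injured libraries lay above all 3 control uninjured ones, whereas Nf1-KO uninjured library 3 lay inside the range of the injured libraries. The means were 2.94% ± 0.460 in Nf1-KO injured, 2.90% ± 0.431 in control injured, 2.18% ± 0.599 in Nf1-KO uninjured and 1.57% ± 0.127 in control uninjured skin (SD, n = 3 each). The ratio of injured to uninjured means was 1.34 in Nf1-KO skin and 1.85 in control skin. The small subunit genes had the higher ratio in both, 1.46 against 1.25 for the large subunit in Nf1-KO skin and 2.09 against 1.67 in control skin.

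**Figure D1:**
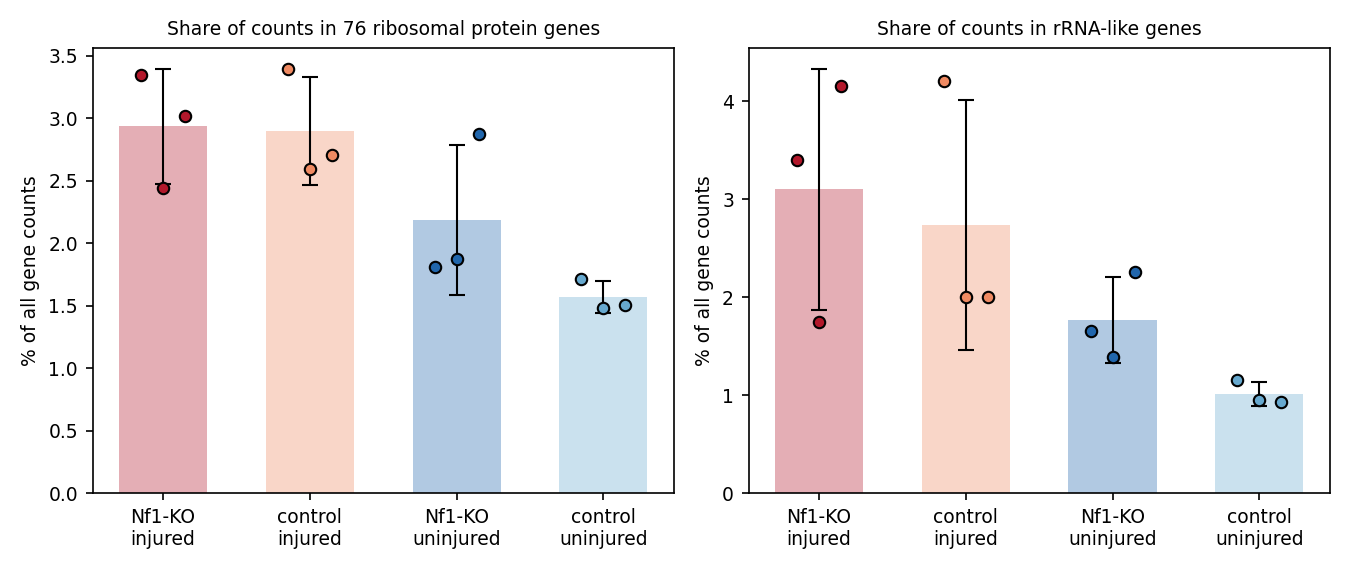
Share of all gene counts in the 76 ribosomal protein genes (left) and in rRNA-like genes (right), in percent, by group. Points are libraries, bars are means and whiskers are SD (n = 3). Nf1-KO uninjured library 3, at 2.88%, stands with the injured libraries in the left plot.

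Per kb of the principal transcript and averaged over the 12 libraries, the highest levels were 1509 CPM per kb for Rplp1 (stalk), 1323 for Rps14 (part of the small subunit platform) and 1203 for Rps27, followed by Rps29. The lowest were 45.6 CPM per kb for Rps15a, 66.1 for Rpl5, 85.0 for Rpl27a and 88.5 for Rps20. Rps15a and Rps20 rest on long annotated transcripts of 5130 and 3706 bases. With all annotated exons as the length, Rplp1 still ranked 1 of 76, Rps29 ranked 2, Rps27 10 and Rps14 14.

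In control skin, 72 of the 76 ribosomal protein genes rose with injury and 0 fell (edgeR quasi-likelihood test, Benjamini-Hochberg adjusted p under 0.05). Over all 23635 genes tested, 22.8% were called higher, 32.5% lower and 55.3% in either direction. The median log2 fold change of the set was 1.27, beside -0.21 over all genes tested, with quartiles of 0.84 and 1.56. Injured and uninjured libraries did not overlap for 73 genes, all higher, and 25.8% of all genes showed the same. In the large subunit 43 of 46 rose, with a median of 1.16, and in the small subunit 29 of 30 rose, with a median of 1.41. Of all genes called, 41.3% were higher, and with library totals in place of TMM scaling 27.8% were higher. That scaling moved the median of all genes to -0.53 and left 59 ribosomal protein genes called higher and 0 lower. Of the 23635 genes tested, 57.5% were then called in either direction, and 3774 genes were called higher.

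The largest change was in Rpl38, a large subunit protein needed for the translation of a subset of Hox mRNAs in mouse embryos. Rpl38 stood at 399.6, 201 and 234 CPM (TMM-normalised) in control injured libraries, against 56.3, 49.8 and 57.7 in control uninjured libraries. Its lowest injured library was far above its highest uninjured one, and the log2 fold change was 2.35 ± 0.36 (SE, adjusted p = 0.000186). Of the other genes at the top, Rps21 stood at 559, 296 and 296 CPM in control injured libraries, against 95.9, 82.8 and 95.5 in control uninjured libraries, a log2 fold change of 2.07 ± 0.34 (edgeR adjusted p = 0.000232). Rps26, a small subunit protein at the mRNA exit, followed with a log2 fold change of 2.02. Injured library 1 was the highest control injured library for each of these genes, and no library of one state overlapped the other.

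The stalk proteins differed in size of change. Rplp0, which anchors the stalk, stood at 1413, 899 and 1171 CPM in control injured libraries, against 622, 630 and 883 in control uninjured libraries. Rplp1 stood at 1570, 719 and 788 CPM in control injured libraries, against 331, 289 and 317 in control uninjured libraries. Rplp2, which pairs with Rplp1 on the stalk, stood at 965, 499 and 515 CPM in control injured libraries, against 159, 133 and 161 in control uninjured libraries. All 3 rose, with log2 fold changes of 0.71 ± 0.26 for Rplp0, 1.72 ± 0.36 for Rplp1 and 2.13 ± 0.36 for Rplp2, and only Rplp0 came close to an overlap. The call on Rplp0 (adjusted p = 0.0277) was lost when control injured library 1 or 3, or control uninjured library 1 or 2, was left out.

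**Figure D2:**
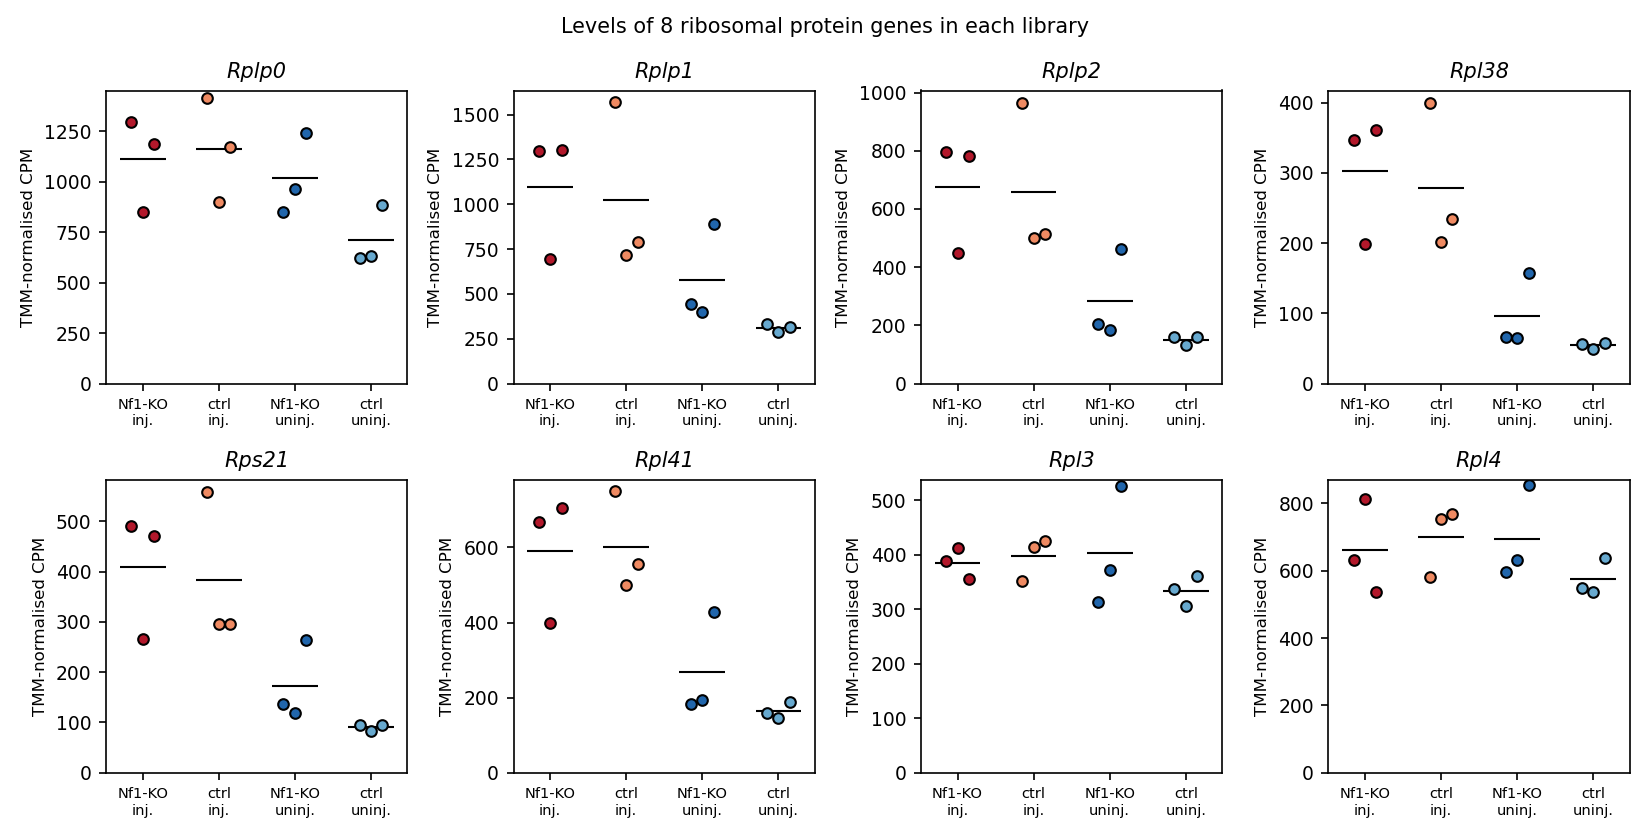
TMM-normalised CPM of 8 ribosomal protein genes in each of the 12 libraries, by group (n = 3). Points are libraries and lines are group means. Rplp2, Rpl38, Rps21 and Rpl41 separate injured from uninjured control skin, while Rpl3 and Rpl4 overlap between all groups.

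Rpl5 and Rpl11, which bind 5S rRNA and hold Mdm2 when ribosome assembly is disturbed, rose by log2 0.65 ± 0.22 and 0.74 ± 0.22. The call on Rpl5 (edgeR adjusted p = 0.0212) was lost without control injured library 3 or control uninjured library 2. Rps6, the substrate of S6 kinase, rose by 1.15 ± 0.24 and Rpsa, which was first described as a laminin receptor, by 1.53 ± 0.34. Rps27a, which is made as a fusion with ubiquitin, rose by 1.40 ± 0.23. Rps19, the gene most often mutated in human Diamond-Blackfan anaemia, rose by 0.72 ± 0.22. Rpl10a rose by 1.09, Rpl13a by 1.35 and Rpl22 by 0.79. The smallest proteins also rose: Rpl41, of 25 residues, by 1.87 ± 0.32 and Rpl39, of 51 residues at the peptide exit tunnel, by 1.32 ± 0.23. Rps4x and the other 3 X-linked genes (Rpl10, Rpl36a and Rpl39) all rose, 4 of 4 with a median of 1.34, beside 68 of 72 autosomal genes with a median of 1.25.

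The 4 genes not called in control skin were Rpl15, Rpl3, Rpl4 and Rps7. Rpl3, which lies at the peptidyl transferase centre, stood at 352, 413 and 426 CPM in control injured libraries, against 336, 305 and 361 in control uninjured libraries. Rpl4, whose long loop lines the exit tunnel, stood at 582, 753 and 769 CPM in control injured libraries, against 549, 537 and 639 in control uninjured libraries. Rpl15 stood at 88.2, 162 and 158 CPM in control injured libraries, against 118, 116 and 136 in control uninjured libraries. Injured library 1 lay among the uninjured libraries in Rpl3 and Rpl4 and below all of them in Rpl15. Log2 fold changes were 0.25 ± 0.21 for Rpl3, 0.29 ± 0.23 for Rpl4, 0.14 ± 0.25 for Rpl15 and 0.42 ± 0.20 for Rps7 (adjusted p 0.335, 0.298, 0.648 and 0.0877), and with library totals in place of TMM the first 3 turned to -0.067, -0.025 and -0.17. Exons of Rpl15 are overlapped by Nkiras1 on the opposite strand, which held 55.5 counts per 100 of Rpl15.

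In Nf1-KO skin, 31 of the 76 genes rose with injury and 0 fell, beside 19.1% of all genes called higher, 18.4% lower and 37.4% in either direction. The median log2 fold change was 0.60, beside -0.090 over all genes tested. Injured and uninjured Nf1-KO libraries did not overlap for 11 genes, 23.6% of all genes being higher without overlap. All 31 genes were among the 72 that rose in control skin, 41 were called in control skin alone and 4 in neither. Of the large subunit 15 of 46 rose and of the small subunit 16 of 30. None of the 4 X-linked genes was called, with a median of 0.57, beside 31 of 72 autosomal genes with a median of 0.60.

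Rpl38 again had the largest change, at 347, 199 and 361 CPM in Nf1-KO injured libraries, against 66.7, 65.3 and 157 in Nf1-KO uninjured libraries. The states did not overlap, and the log2 fold change was 1.65 ± 0.35 (edgeR adjusted p = 0.00252). Rplp2 stood at 797, 449 and 783 CPM in Nf1-KO injured libraries, against 206, 184 and 462 in Nf1-KO uninjured libraries, a log2 fold change of 1.25 ± 0.35. Its uninjured library 3 exceeded its injured library 2, so the states overlapped by that pair. Rps15a (1.25 ± 0.28), Rps21 (1.24 ± 0.33), Rpl41 (1.14 ± 0.31), Rplp1 (0.93 ± 0.35) and Rps27a (0.71 ± 0.23) also rose. Rpsa, at 0.87 ± 0.34 with an adjusted p of 0.0538, and Rps6, at 0.53 ± 0.24, were not called. Rpl29, chosen after its values were seen, had the single negative value between genotypes in uninjured skin, and rose by 0.88 in Nf1-KO skin and by 0.74 in control skin.

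Rpl3 stood at 388, 412 and 356 CPM in Nf1-KO injured libraries, against 313, 372 and 526 in Nf1-KO uninjured libraries, so that the states overlapped. Rpl4 stood at 632, 814 and 537 CPM in Nf1-KO injured libraries, against 598, 633 and 854 in Nf1-KO uninjured libraries, and also overlapped. Their log2 fold changes were -0.066 ± 0.21 and -0.072 ± 0.23, and that of Rpl15 was -0.23 ± 0.25. These 3 with Rps7 and Rpl21 were the 5 genes with a negative value, and none was called.

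The count in Nf1-KO skin rested on single libraries. Leaving out Nf1-KO uninjured library 1 gave 6 genes, library 2 gave 4 and library 3 gave 64, with a median log2 fold change of 0.99 in the last case. Of all genes, 26.9%, 22.5% and 34% were called in either direction in these fits. Leaving out Nf1-KO injured library 1 gave 12 genes and library 3 gave 20, beside 24.3% and 39.6% of all genes called. A fit of the compared groups alone called 11, beside 35.1% of all genes called. Of the genes named, Rplp2, Rpl41, Rpl29 and Rps27a lost their calls without Nf1-KO uninjured library 1 or 2, and Rps21 without library 2. Rps27a also lost it without Nf1-KO injured library 1. The call on Rplp1 (edgeR adjusted p = 0.0481) was lost without any control uninjured library, Nf1-KO uninjured library 1 or 2, or Nf1-KO injured library 1 or 3.

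**Figure D3:**
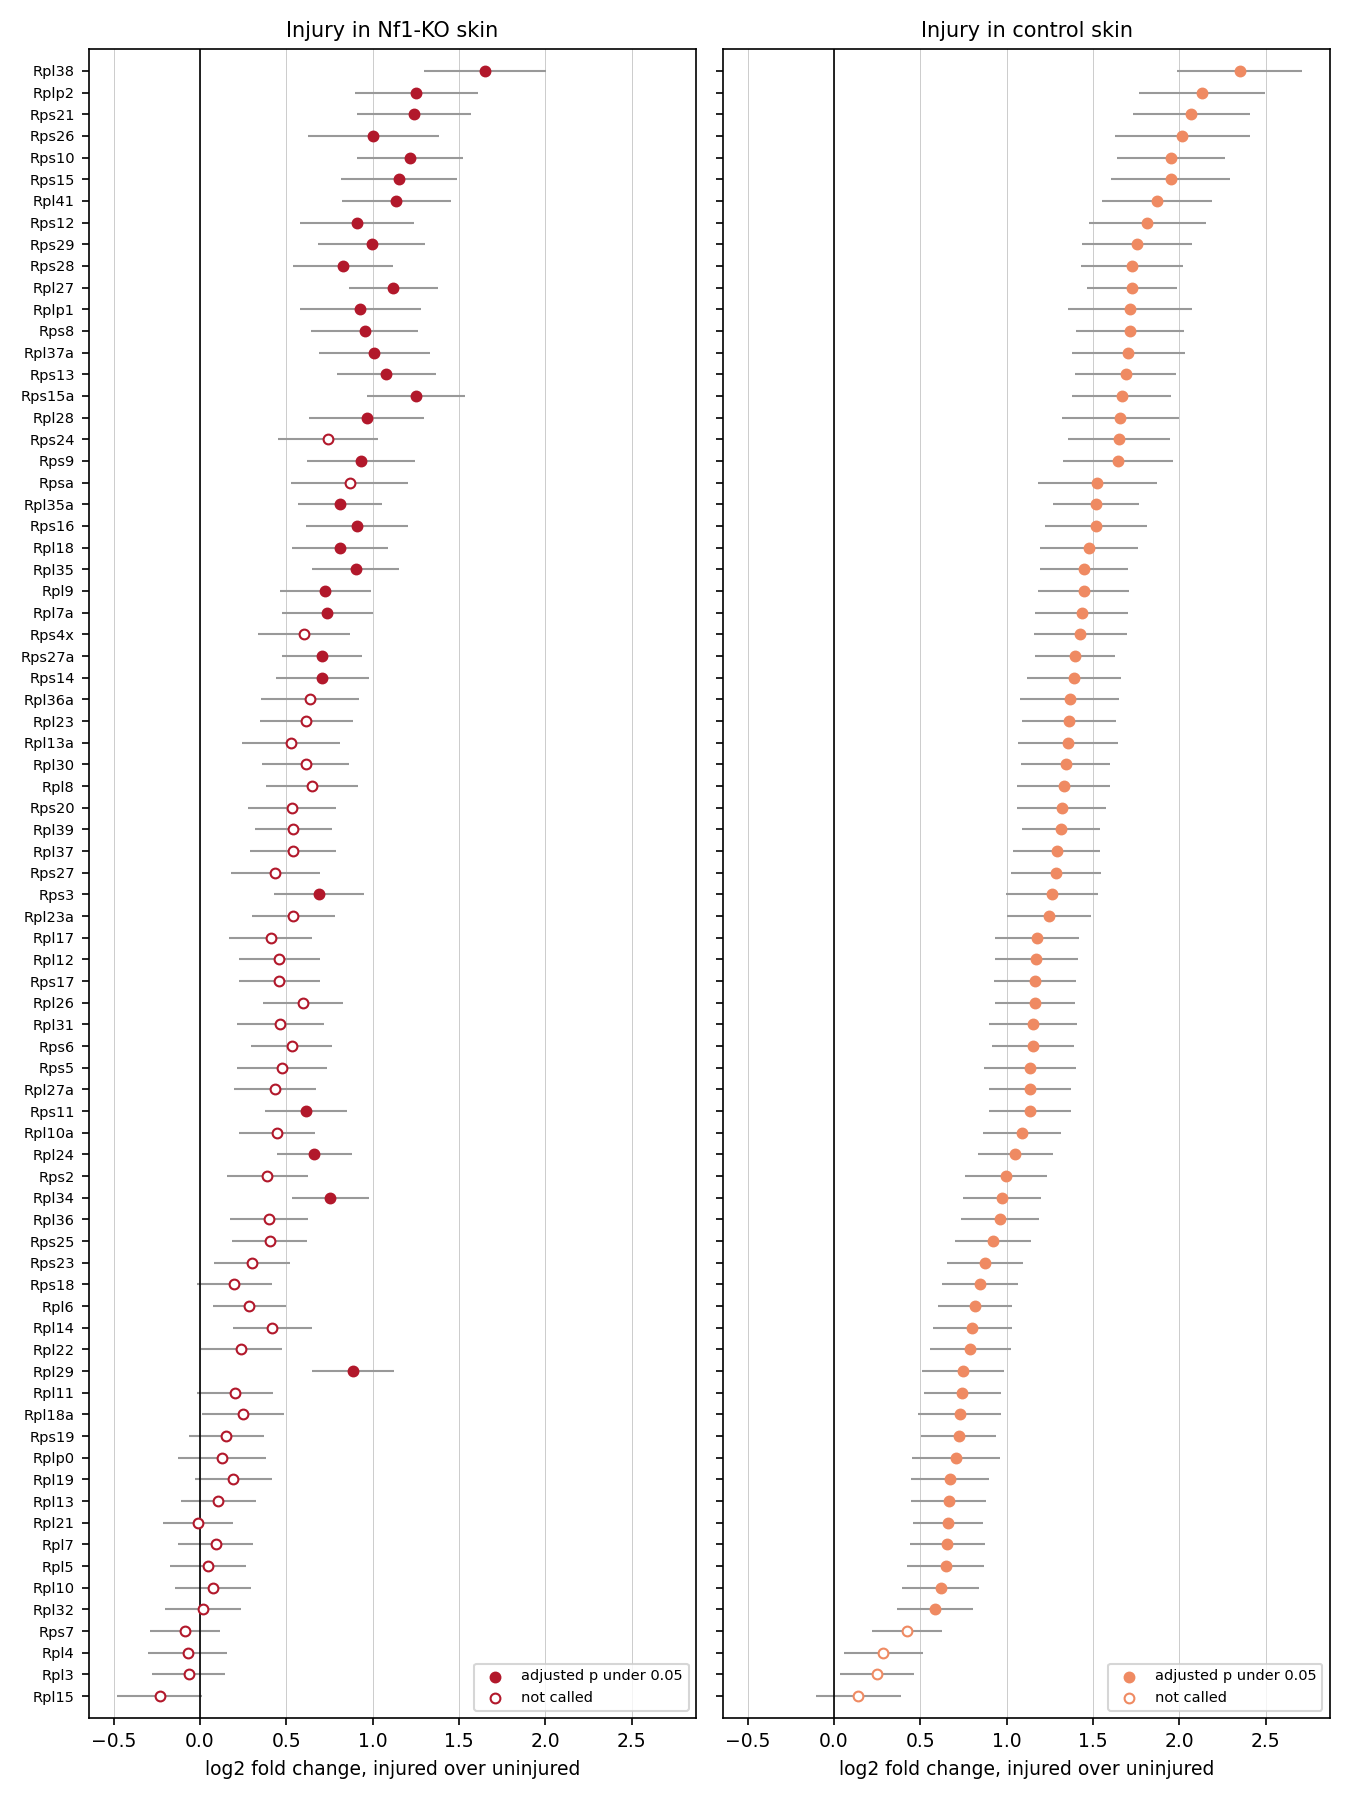
Log2 fold change (injured over uninjured) of the 76 ribosomal protein genes in Nf1-KO skin (left) and control skin (right), in the order of control skin, with SE as lines. Filled points passed an adjusted p under 0.05 in edgeR. In control skin 72 points are filled and in Nf1-KO skin 31, and Rpl38 lies farthest right in both.

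Between genotypes, 0 of the 76 genes was called in uninjured skin, where 0.0296% of all genes were called, 0.0254% higher and 0.00423% lower. The median log2 fold change, Nf1-KO over control, was 0.65, beside -0.041 over all genes, and 75 of 76 values were positive. At an unadjusted p under 0.05, 58 of the 76 genes passed, beside 8.34% of all genes, and 54 had all Nf1-KO uninjured libraries above all control uninjured ones, beside 8.79% of all genes. The smallest adjusted p was 0.473, for Rpl21, which stood at 197, 207 and 324 CPM in Nf1-KO uninjured libraries, against 148, 141 and 153 in control uninjured libraries. DESeq2 and limma voom also called 0. Log2 fold changes were 0.88 for Rps27, 0.91 for Rplp2, 0.82 for Rpl38, 0.52 for Rplp0, 0.27 for Rpl4 and -0.12 for Rpl29. Without Nf1-KO uninjured library 3 the median of the set was 0.27. Without the filter on low counts 12 genes were called higher, beside 0.441% of all genes called in either direction. The rRNA-like share did not overlap between these groups, at 1.39% to 2.26% in Nf1-KO and 0.931% to 1.16% in control libraries. With that share as a covariate, a fit added after the values were seen, the median was 0.25, beside -0.031 over all genes.

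In injured skin, 0 of the 76 genes was called between genotypes (0% of all genes in edgeR), 0 passed an unadjusted p under 0.05 and 10.7% of all genes did, and DESeq2 and limma voom called 0 of the 76. The median log2 fold change was -0.015, beside 0.12 over all genes, and single values ran from -0.21 for Rpl39 to 0.14 for Rpl34. Only Rpl7, named after its values were seen, was lower without overlap, beside 2.67% of all genes. Rpl39 stood at 177, 147 and 197 CPM in Nf1-KO injured libraries, against 235, 188 and 180.1 in control injured libraries, with an adjusted p of 0.877. Rpl38 and Rplp2, with values in both injured groups given above, overlapped between genotypes.

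The difference of the injury responses itself (Nf1-KO minus control) was called for 0 of the 76 genes in edgeR, where 0% of all genes were called, and for 0 in DESeq2 and in limma voom. At an unadjusted p under 0.05, 12 passed, beside 10.8% of all genes. The median was -0.67, beside 0.17 over all genes, and 75 of 76 values were negative. The smallest p-values belonged to Rpl39 (-0.78 ± 0.31, adjusted p = 0.445), Rpl21 (-0.67 ± 0.29), Rps27 (-0.85 ± 0.37) and Rpl17 (-0.76 ± 0.34). Since 4 groups enter this value, a high level in Nf1-KO uninjured library 3 enters it too, and without single libraries the median ran from -0.89 to -0.27. With the rRNA-like share as a covariate, a fit added after the values were seen, the median was -0.36, beside 0.15 over all genes.

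Fits that took the summed counts of the 76 genes as library size showed which members departed from the set. In control skin 7 genes rose relative to the set with injury: Rpl38 (1.11), Rplp2 (0.89), Rps21 (0.83), Rps26 (0.77), Rps15 (0.72), Rps10 (0.71) and Rpl41 (0.66). In the same fit 4 fell, namely Rps7 (-0.74), Rpl4 (-0.87), Rpl3 (-0.91) and Rpl15 (-0.99). In Nf1-KO skin Rpl38 (1.10), Rplp2 (0.70) and Rps15a (0.68) rose relative to the set and 0 fell. Over all genes, these fits called 71.3% in control skin and 42.5% in Nf1-KO skin in either direction. Of the genes called, 6.16% in control skin and 16.4% in Nf1-KO skin were higher.

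Size of change went with coding length. The 25 members with the shortest coding sequences (75 to 399 bases) had a median log2 fold change of 0.81 in Nf1-KO skin and 1.52 in control skin. The 25 longest (576 to 1257 bases) had 0.42 in Nf1-KO skin and 1.00 in control skin, and the 26 between them had 0.61 and 1.17. Pearson's r between log2 fold change and log2 coding length was -0.49 in Nf1-KO skin and -0.53 in control skin across the 76 genes, which share libraries and are not independent. Over 17225 protein-coding genes it was -0.13 in Nf1-KO skin and -0.16 in control skin.

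**Figure D4:**
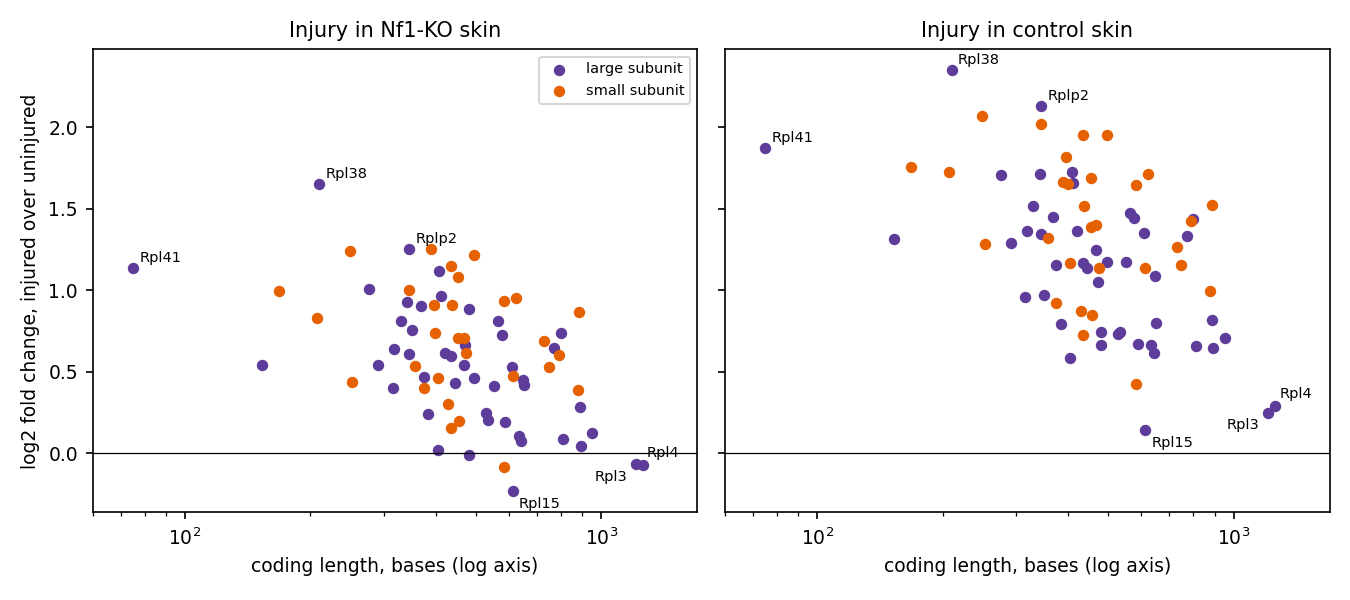
Log2 fold change (injured over uninjured) of each ribosomal protein gene against its coding length in bases (log axis), in Nf1-KO skin (left) and control skin (right), by subunit. Values fall with length (r -0.49 and -0.53), from Rpl41 and Rpl38 at the short end to Rpl3 and Rpl4 at the long end.

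The ratio of Rpl38 to Rpl4 counts differed between libraries of the same group. It was 0.549, 0.245 and 0.671 in Nf1-KO injured, 0.687, 0.267 and 0.305 in control injured, 0.112, 0.103 and 0.184 in Nf1-KO uninjured and 0.103, 0.0928 and 0.0902 in control uninjured libraries. The 3 injured libraries with the highest ratios were those with the highest rRNA-like share, 3.40%, 4.15% and 4.21%. With the rRNA-like share as a covariate, 4 ribosomal protein genes were called in Nf1-KO skin and 7 in control skin, beside 23.1% and 28.1% of all genes called in either direction. These counts do not stand above the share of all genes. The median log2 fold change of the set was then 0.24 in Nf1-KO skin and 0.62 in control skin, beside -0.084 and -0.15 over all genes, and r with coding length was -0.35 in Nf1-KO skin and -0.20 in control skin. Counting Lars2 and the mitochondrial rRNAs as rRNA-like too gave 9 in Nf1-KO skin and 18 in control skin, all higher. That fit called 27.4% of all genes in Nf1-KO skin and 34% in control skin in either direction. Of the 23635 genes, 3535 in Nf1-KO skin and 3297 in control skin were called higher. With those 3 libraries left out, the median of the set in control skin was 1.27, beside -0.33 over all genes, and r with coding length was -0.53. The same fit leaves Nf1-KO injured library 2 as the single library of its group, assumed to vary like the other groups. It called 0 of the set in Nf1-KO skin, beside 16.1% of all genes, with a median of 0.33 and r of -0.28, and how much of that loss comes from the smaller group was not tested. These fits were added after the values were seen.

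**Figure D5:**
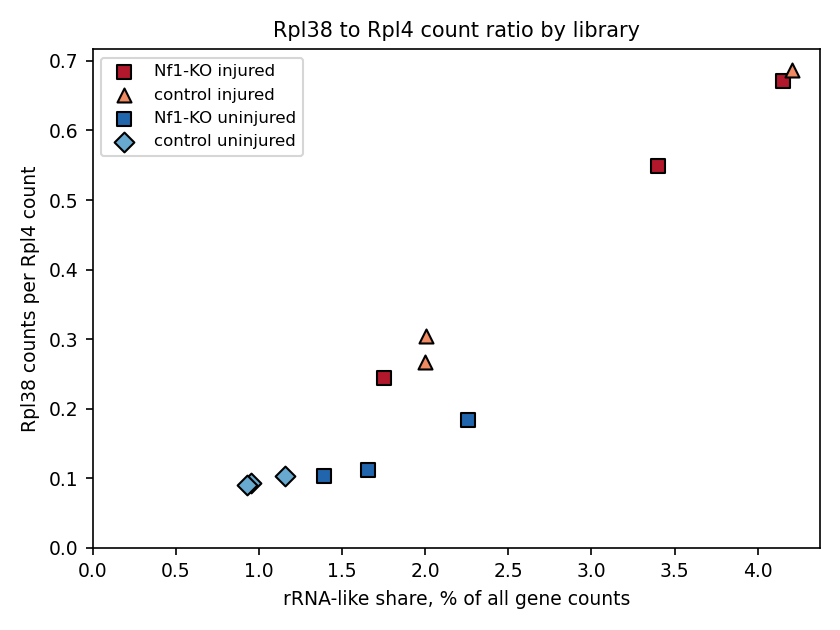
Rpl38 counts per Rpl4 count against the rRNA-like share of counts in percent, for each of 12 libraries. The 3 libraries above 3% rRNA-like counts (Nf1-KO injured 1 and 3, control injured 1) have ratios of 0.549 to 0.687, and every other library has 0.305 or less.

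Counting could move reads between related genes. Pseudogenes named after a member were annotated for 59 of the 76 genes, and the 289 pseudogenes with Rpl or Rps names held at most 0.0379% of the counts of a library. Pseudogenes under other names were not counted. Exons of 37 members overlap those of another gene, 18 of them on the opposite strand, and the libraries carry no strand. For 17 members the overlapping genes held more than 5 counts per 100 of the member. The levels of Rpl35, Rpl23a, Rpl13a and Rpl24, at 99.9 or more such counts per 100, are uncertain for that reason.

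Ribosomal protein genes outside the symbol rule were tested in the same fit. Rack1, a scaffold on the small subunit, rose by 0.79 in Nf1-KO skin and by 1.60 in control skin. Fau (1.36) and Rps3a1 (0.93) rose in control skin and were not called in Nf1-KO skin. Of 8 paralogs of ribosomal proteins, 6 were tested, and 4 rose in Nf1-KO skin and 5 in control skin. Over all genes 19.1% and 22.8% were called higher. Rpl39l rose by 2.79 in Nf1-KO skin and 2.90 in control skin, Rpl22l1 by 1.06 and 1.76, and Rpl36al by 0.81 and 1.53. Rpl3l, a paralog used in striated muscle, rose by 2.91 in Nf1-KO skin and 1.46 in control skin. Both Rpl39l and Rpl3l rest on few counts: Rpl39l held 13 to 32 in uninjured libraries, and Rpl3l held 13, 5 and 35 in Nf1-KO uninjured libraries. In control skin the states overlapped for Rpl3l, with control injured library 3 at 4.54 and control uninjured library 1 at 4.98 CPM (TMM-normalised). Rpl7l1 rose in control skin (0.58), Rps27l was not called (0.41), and Rpl10l did not pass the filter. The median over the tested paralogs was 0.94 in Nf1-KO skin and 1.496 in control skin.

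Mitochondrial ribosomal protein genes, which build the separate ribosome of the organelle, rose in 39 of 78 cases in Nf1-KO skin and 59 of 78 in control skin, with medians of 0.50 and 0.86. Other factors whose mRNAs carry an oligopyrimidine tract rose in 7 of 17 cases in Nf1-KO skin and 11 of 17 in control skin. Among them Nap1l1, a histone chaperone, rose by 0.97 in Nf1-KO skin and 1.31 in control skin, and Eef1g, an elongation factor subunit, by 1.02 and 1.60. Pabpc1, the poly(A)-binding protein, rose by 1.67 in control skin. Of 19 other initiation factors, 5 rose in Nf1-KO skin and 10 in control skin, with Eif2s2, a subunit of eIF2, at 1.36 and 1.88. These counts stand beside 19.1% of all genes called higher in Nf1-KO skin and 22.8% in control skin.

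Of 34 ribosome biogenesis genes, 11 rose and 1 fell in Nf1-KO skin, and 17 rose and 1 fell in control skin. Nop10, a part of the pseudouridylation complex, rose by 0.96 in Nf1-KO skin and 1.56 in control skin, and Fbl, the rRNA methyltransferase fibrillarin, by 0.89 and 1.43. The gene that fell was Sbds (-0.56), which helps release eIF6 from the large subunit, in Nf1-KO skin and Rrn3 (-0.64), a factor of RNA polymerase I, in control skin. Of 14 genes that regulate or survey ribosomal proteins, 2 rose in Nf1-KO skin, and 6 rose and 2 fell in control skin. The share that rose in Nf1-KO skin is below the 19.1% of all genes called higher there, and 22.8% were called higher in control skin. Eif4ebp1, an inhibitor of eIF4E under mTORC1, rose by 0.83 in Nf1-KO skin and 1.53 in control skin. Larp1, which binds oligopyrimidine tracts, rose by 0.50 in control skin, whereas Larp4 (-0.59) and Mdm2 (-0.55) fell there. No gene of these lists was called between genotypes. In control skin the calls on Rpl3l, Larp1, Larp4, Mdm2, Rrn3 and Rpl7l1 were each lost without control uninjured library 2, and in several of them without other libraries too. In Nf1-KO skin those on Rack1, Rpl36al and Eif4ebp1 were lost without Nf1-KO uninjured library 1 or 2, and that on Sbds without Nf1-KO uninjured library 3 or Nf1-KO injured library 1 or 3.

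Markers of several cell types moved with skin state beside the ribosomal protein genes. All 16 markers of the growing hair follicle were called higher in both genotypes, and their summed level ran from 9054 to 30287 CPM in Nf1-KO injured and 120.1 to 179 in Nf1-KO uninjured libraries, and from 11456 to 19294 in control injured and 124 to 142 in control uninjured libraries. Of 12 cell cycle genes, 10 rose in each genotype, with sums of 659 to 755 CPM in Nf1-KO injured against 290.5 to 357 in Nf1-KO uninjured libraries and 548 to 739 in control injured against 278 to 306 in control uninjured libraries. Of 8 macrophage genes, 8 rose in Nf1-KO and 7 in control skin, and 10 of 10 dermal fibroblast and matrix genes rose in both. Of 10 basal keratinocyte genes, 9 fell in both, with sums of 7554 to 10356 CPM in Nf1-KO injured against 22488 to 24944 in Nf1-KO uninjured and 12337 to 12906 in control injured against 19653 to 23207 in control uninjured libraries. Adipocyte genes rose in 7 of 8 cases in Nf1-KO and 8 of 8 in control skin, skeletal muscle genes in 10 of 10 and 9 of 10, and red blood cell genes in 5 of 5 and 4 of 5. Of 8 Schwann and myelin genes, 1 rose and 3 fell in Nf1-KO skin, and 0 rose and 4 fell in control skin. Of 6 T and natural killer cell genes, 2 fell in each genotype, and of 10 differentiating keratinocyte genes 1 rose and 5 fell in Nf1-KO skin and 2 rose and 4 fell in control skin. Over all genes 19.1% were called higher and 18.4% lower in Nf1-KO skin, and 22.8% higher and 32.5% lower in control skin. No marker of these lists was at 0 in a whole group. The part of these cell types in the change of ribosomal protein genes was not tested.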

How the data were processed

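Whole-skin RNA-seq of 12 libraries, 3 in each of 4 groups, was used. The deposited values are raw counts per Ensembl gene made by the authors. Per the labels' protocols, libraries came from 10 ng of total RNA with Smart-Seq v4 and Nextera XT. These kits do not mark strand. Per the submitters' processing notes, STAR 2.5.2b, HTSeq 0.5.3, SAMtools, DESeq2 and HOMER were used with mm10; no label or header names the annotation or the strand setting. Of the 53379 IDs, 53274 matched GENCODE M21. A deposited column that matched no listed sample (1 in all) was not used.

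A single model over the 12 libraries was fitted in edgeR 4.0.16 (R 4.3.3) (4 group means, TMM, expression filter with a count minimum of 10, robust quasi-likelihood F test, 2-sided), with p-values adjusted by Benjamini-Hochberg over 23635 genes and calls at adjusted p under 0.05. The SE is the log2 fold change over the root of F. The script was tested on simulated data. Alternatives were other scalings, filters, DESeq2 1.42.0, limma 3.58.1 voom, a replicate block, groups alone, covariates and left-out libraries. A 3-against-3 permutation test cannot go below p = 0.1. Reads carry no molecular identifiers.

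Members and lists were chosen with earlier results of these data known. Named were up to 4 called members with the largest rise and fall per comparison, the 4 smallest p of the interaction, the 4 highest and lowest levels, and members chosen by role; of each pathway list at most 3 called genes, taken by p, and all genes of the lists of other subunits and of paralogs. A listed gene is not reported here. The text gives a selection made after values were seen, and Rpl29, Larp1, Larp4, Mdm2, Rrn3 and Sbds were named after their values were seen. The rRNA-like gene set was also settled after its shares were seen. Pyrimidine runs and motifs were read from RefSeq sequence.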

Additional observations from a re-analysis of the deposited data

How the results depend on the processing

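With single libraries left out, the call count in Nf1-KO skin (31) ran from 4 to 64 and that in control skin (72) from 64 to 73. In Nf1-KO skin 22.5% and 34% of all genes were called at these ends. In control skin 44.8% were called at the lower end and 55.2% to 58.8% in the fits that gave 73. With control uninjured libraries 1 and 2 left out, which leaves 1 control uninjured library assumed to vary like the other groups, 39 were called in control skin. That fit gave a median log2 fold change of 1.23 for the set in control skin, beside -0.23 over all genes. In the main fit these medians were 1.27 and -0.21. A smaller share of all genes was called there than in the main fit, so the fall in calls was not confined to the set. The covariate fits left 4 (or 9 with the wider rRNA-like set) in Nf1-KO skin and 7 (or 18) in control skin. Of all genes, they called 23.1% (or 27.4%) in Nf1-KO skin and 28.1% (or 34%) in control skin. Leaving out the 3 injured libraries richest in rRNA-like counts left 0 in Nf1-KO skin, where 1 Nf1-KO injured library remained, assumed to vary like the other groups. A fit of the compared groups alone left 11 in Nf1-KO skin, beside 35.1% of all genes called. No filter gave 12 in the comparison of uninjured skin, beside 0.441% of all genes called, and the cause was not tested. With the members' summed counts as library size, 3 were called in Nf1-KO skin and 11 in control skin, since that fit measures departure from the set. The same fit called 42.5% of all genes in Nf1-KO skin and 71.3% in control skin. DESeq2 called 26, limma voom 42 and no filter 45 in Nf1-KO skin, beside 21.1%, 42.9% and 21.1% of all genes called. Counts stayed at 0 for the comparison of injured skin and for the interaction in every alternative run. Shares of counts moved by less than 1 SD with another denominator or with the pseudogenes of Rpl and Rps names added.

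The labels do not say whether replicate numbers pair the samples. Correlations of same-numbered deviations ran from -0.103 to 0.380, not all above 0.1, and with 3 libraries per group they cannot decide it. The fit with a replicate block called 35 in Nf1-KO skin, 72 in control skin and 0 elsewhere. It called 34.6% of all genes in Nf1-KO skin and 53.9% in control skin.

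With the members' summed counts as library size, these log2 values turned in control skin: Rplp0 -0.50, Rps6 -0.025, Rpl5 -0.51, Rpl11 -0.43, Rps19 -0.47, Rpl10a -0.10, Rpl22 -0.41, Rpl29 -0.45, Rpl3 -0.91, Rpl4 -0.87, Rpl15 -0.99, Rps7 -0.74, Rps3a1 -0.26, Rpl7l1 -0.59, Rps27l -0.75 and Larp1 -0.69. In the same fit Rps6 turned to -0.026 in Nf1-KO skin, and Rplp0 and Rpl4 to -0.032 and -0.28 in uninjured skin between genotypes. With library totals, Rpl3 was -0.067, Rpl4 -0.025 and Rpl15 -0.17 in control skin. With the covariate Larp4 was 0.076 (0.042 with the wider set) in control skin, and Rpl4 was 0.094 (0.074) and Rpl15 0.026 in Nf1-KO skin. Without the 3 libraries, and so with 1 Nf1-KO injured library, Rpl3 was 0.056, Rpl4 0.25 and Rpl15 0.11 in Nf1-KO skin. With single libraries left out, Rpl3 ran from -0.23 to 0.20, Rpl4 from -0.24 to 0.13 and Rpl15 from -0.42 to 0.011 in Nf1-KO skin, and Rpl29 from -0.51 to 0.066 between genotypes in uninjured skin. None of these turned values was called except Rpl3, Rpl4, Rpl15, Rps7, Rps27l and Larp1 in the first fit named.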
